A study of Mus musculus with 9 samples.

Results

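The esophagus of newborn mice that lack p63 was compared with the esophagus of mice that lack p63 and also carry a Cdx2 transgene. The comparison takes 5 of the 9 arrays of the study, chosen by their titles: 2 of the p63 knockout with the Cdx2 transgene and 3 of the p63 knockout alone. The other 4 arrays are of wild type mice. All mice were of strain C57BL/6J and were taken at postnatal day 0. Both groups compared here are p63-/-, so the controls carry the p63 knockout as well, and the transgene, Villin-Cdx2, is named for the promoter of villin, a gene of intestinal brush borders. Nothing in the labels gives the founder line of the transgene or the cells in which it is active.

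On each array the sample RNA carried Cy5 and a common reference, RNA pooled from 11 mouse cell lines, carried Cy3, with no dye swap. The cell type label names epithelium, while a fibrous-tissue kit was used to take RNA from the esophagus itself. The labels number the replicates with Cdx2 out of 3, of which 2 were analysed here. They call the samples biological replicates. A wild type sample, replicate 4, has a source label that names p63-/- while its title and genotype say wild type. It enters the fit as wild type.

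p63, encoded by Trp63, is the transcription factor that maintains the basal layer of stratified squamous epithelium, and without it the lining of the esophagus remains a simple epithelium with columnar and ciliated cells. Cdx2 is a homeobox transcription factor of the intestine, where it binds A/T-rich sites at genes of enterocytes and goblet cells. The comparison asks what the transgene adds to the expression profile of an esophagus without a squamous lining, which bears on how an intestinal type of epithelium could arise there.

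Over the 9 arrays, 30021 to 33243 probes gave a sample signal well above background, and the median sample signal per array was 309 to 472 intensity units. All 48 markers of 13 cell types that were looked up were well above background on at least 1 array of each group, apart from Cdh17. Cdh17, an intestinal cadherin, was so on 0 of the 3 knockout arrays. Markers of epithelium, skeletal and smooth muscle, fibroblasts, airway secretory and ciliated cells, blood, fat, neurons, cartilage and thyroid were thus all measured, which is the profile of a tissue and not of isolated epithelium. In such RNA, fewer cells of a type and less RNA per cell cannot be told apart. Each genotype was hybridised on a slide of its own and scanned on its own, so slide, scan and genotype cannot be told apart.

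The arrays with Cdx2 differed from each other more than the knockout arrays did. Over 22605 genes, the log2 ratios of sample over reference correlated at r = 0.905 between both arrays with Cdx2, and 3.64% of genes lay at least 2-fold apart. Between knockout arrays r was 0.947 to 0.97, and 0.549% to 1.55% of genes lay that far apart. Across the groups r was 0.882 to 0.955. The lowest value was between knockout replicate 1 and Cdx2 replicate 1, and the pair of knockout replicate 2 and Cdx2 replicate 2 was more alike than both Cdx2 arrays were. Single cell types moved with single arrays. The summed sample signal of the airway secretory markers Scgb3a1, Scgb1a1 and Muc5b was 18.61, 17.51 and 18.18 on the log2 scale in the knockout and 18.1 in Cdx2 replicate 2, but 11.3 in Cdx2 replicate 1. That of the adipocyte markers was 17.84 in knockout replicate 1 and between 14.9 and 16.41 on the other 4 arrays. That of the skeletal muscle markers was 16.79 in Cdx2 replicate 2 and between 17.84 and 19 elsewhere.

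In the log ratio, limma called 0 of 22644 genes at an adjusted p under 0.05 (0%), with a lowest adjusted p of 0.214. At an unadjusted p under 0.05, 2585 genes (11.4%) differed, 1172 higher (5.18%) and 1413 lower (6.24%) with Cdx2. The groups did not overlap for 3168 genes that were higher (14%) and 4079 that were lower (18%) with Cdx2. That split between higher and lower depended on the normalization: with the log ratios written by the scanner software 1832 were higher and 1309 lower, and 1829 were higher and 1315 lower by the authors' deposited table of values. When log ratios were scaled to equal spread between arrays, 178 genes were left at an unadjusted p under 0.05.

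The sample channel read without the reference gave 53 calls by limma at an adjusted p under 0.05 (0.234%), of which 10 rose (0.0442%) and 43 fell (0.19%) with Cdx2. The reference RNA was the same on every array, yet its channel gave 1943 calls at the same threshold (8.58%), and over the 22644 genes the differences of both channels correlated at r = 0.669, a description over genes that share arrays. Among the 43 genes that fell, the reference reading of the same spots fell by at least 0.5 of the sample difference for 37, and among the 10 that rose this held for 1. For 18 of the 53 genes the log ratio had the opposite sign. The remaining agreement was 28 genes, 10 higher and 18 lower, that were called in the sample channel and whose log ratios had the same sign with no overlap between groups. None of the 53 was called when the model held only the 5 arrays compared, and leaving out single arrays gave between 6 (without knockout replicate 2) and 158 (without Cdx2 replicate 1) calls.

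**Figure D1:**
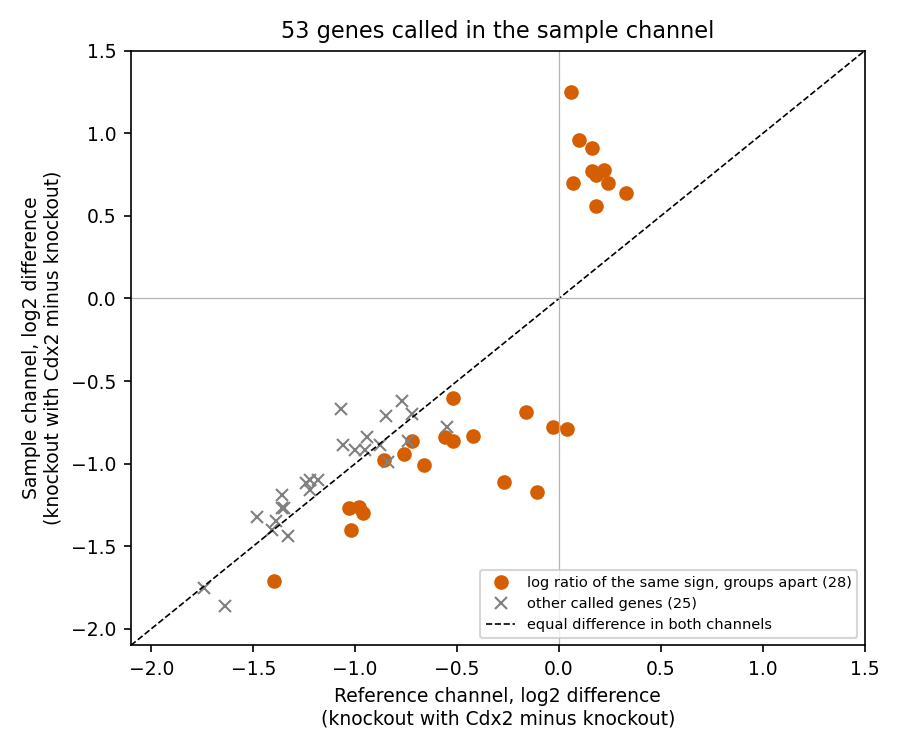
Difference of the knockout with Cdx2 minus the knockout in the reference channel (horizontal, log2) and in the sample channel (vertical, log2) for the 53 genes called in the sample channel, 1 point a gene. Orange circles are the 28 genes whose log ratio had the same sign with the groups apart, grey crosses the others, and the dashed line marks equal differences. For 37 of the 43 genes that fell the reference difference is at least 0.5 of the sample difference, and the 10 that rose lie above the line.

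Of the 28 genes, 15 have a gene symbol, and 6 of those rose with Cdx2. Eogt, an enzyme that adds N-acetylglucosamine to secreted proteins, had log2 ratios of 0.11, -0.05 and -0.13 in knockout replicates 1 to 3 and 0.97 and 0.70 in Cdx2 replicates 1 and 2. Its sample signal was 11.06, 10.95 and 10.96 against 12.06 and 11.85. It rose by 0.96 in the sample channel (SE 0.14, limma adjusted p = 0.0447), and by log ratio the difference was 0.86 (SE 0.14, adjusted p = 0.353). Its reference reading differed by 0.10.

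Dnmt1 encodes the methyltransferase that copies DNA methylation onto newly made strands. Its log2 ratio was -0.96, -0.56 and -0.58 in the knockout and -0.20 and -0.28 with Cdx2, and its sample signal rose from 10.77, 11.01 and 11.04 to 11.70 and 11.59. The sample difference was 0.70 (SE 0.10, limma adjusted p = 0.0497). Caprin1, an RNA-binding protein that takes part in cell cycle progression, rose by 0.78 (SE 0.10, limma adjusted p = 0.0355). Its log2 ratios were -0.53, -0.30 and -0.24 in the knockout and 0.13 and 0.27 with Cdx2. Both genes were higher on each array with Cdx2 than on any knockout array. Of the others, Alyref2 rose by 0.75, Capza1, an actin capping protein, by 0.64, and the uncharacterised 4930437M23Rik by 0.70. The probe of 4930437M23Rik was not well above background in the knockout, and a bound on its level gave an at least 1.57-fold higher signal with Cdx2.

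Among the genes with a symbol that fell, Osr1 had the reference reading least changed beside Arhgap26. Osr1 is a zinc finger transcription factor of foregut and urogenital mesoderm. Its probe lies at chr12:9586475-9586534 of mm9. Its log2 ratios were -0.24, -0.36 and -0.29 in the knockout and -1.15 and -1.10 with Cdx2. Its sample signal was 11.43, 11.29 and 11.46 against 10.56 and 10.65, and its reference reading differed by 0.04. It fell by 0.79 in the sample channel (SE 0.10, limma adjusted p = 0.0311), and by log ratio the difference was -0.83 (SE 0.10, adjusted p = 0.353). The call was lost when any 1 of the 5 arrays was left out, at adjusted p between 0.0619 and 0.114, and the difference then lay between -0.84 and -0.74. Eogt, Dnmt1 and Caprin1 lost theirs in the same way.

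Card6, a protein with a caspase recruitment domain, had log2 ratios of -0.84, -1.07 and -0.91 in the knockout and -1.53 and -1.42 with Cdx2, and it fell by 0.69 in the sample channel (limma adjusted p = 0.0302). Bfsp1, an intermediate filament protein best known from the lens, had log2 ratios of 1.95, 1.72 and 1.82 against 1.09 and 0.90. It fell by 1.11 in the sample channel (limma adjusted p = 0.0216), with a reference difference of -0.27. Arhgap26, a GTPase-activating protein, fell by 0.78 with a reference difference of -0.03. In these genes the groups stood apart in both readouts, in log ratio by the rule that named them.

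For other genes that fell, the reference channel carried much of the sample difference. Tnfsf12 encodes a cytokine of the tumour necrosis factor family. Its sample signal was 8.86, 8.74 and 8.67 in the knockout and 7.02 and 7.08 with Cdx2, a difference of -1.71 (limma adjusted p = 0.00749). Its reference reading differed by -1.40, and its log2 ratios, 0.14, -0.13 and -0.01 against -0.32 and -0.30, by -0.31. Jrkl, Gm4371 and 4930544G11Rik had sample differences of -0.84, -0.60 and -1.26 and reference differences of -0.56, -0.52 and -0.98. Pink1, a kinase of mitochondrial quality control, had -0.83 and -0.42. Reference readings also differed between arrays of the same slide. For Scgb3a1, Scgb1a1 and Muc5b they were 8.43, 7.46 and 6.79 in Cdx2 replicate 1 and 15.23, 9.13 and 11.09 in replicate 2. The sample signals of these genes were also higher in replicate 2. How far a moved reference reading reports the slide, and how far the sample signal of the same spot, was not tested.

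The transgene and its promoter gave no signal on the array that could be read as a check of the labels. No array had a signal well above background at the probes for Cdx1, Cdx2 or Cdx4. The background-subtracted sample signal of the Cdx2 probe was 6.43, 12.97 and 11.36 intensity units in the knockout and -0.57 and 35.49 with Cdx2. Whether a Cdx2 transcript made from the transgene contains the probe sequence is not given in the sources used here. Vil1, the endogenous villin gene, differed by -0.10 in log ratio. The sign of that value turned to 0.17 without Cdx2 replicate 1 and to 0.09 with log ratios scaled between arrays. Trp63 has 3 probes on the array, of which 2 were well above background on all 9 arrays. The brighter one gave log2 ratios of 3.39 to 4.13 in the 4 wild type arrays, 2.74, 2.73 and 2.73 in the knockout and 3.37 and 3.09 with Cdx2, a difference of 0.50 (SE 0.20, limma adjusted p = 0.418) between groups that both carry the knockout. The dimmer one gave a background-subtracted sample signal of 39.12 to 100.47 intensity units on the wild type arrays. It was 130.33, 156.58 and 137.38 units on the knockout arrays and 273.71 and 254.21 with Cdx2, so it was lowest in wild type and highest with Cdx2. Both probes thus gave signal in the libraries labelled p63 knockout. Whether the probes lie in the deleted part of the gene is not given in the sources used here, so they do not check the labels.

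The broadest pattern was in genes of DNA replication and mitosis. Of 62 measured genes of DNA replication and entry into S phase, 41 were higher with Cdx2 at an unadjusted p under 0.05 and 0 lower, where 5.18% of all genes were higher. For 50 of the 62 both arrays with Cdx2 lay above all 3 knockout arrays, where 14% of all genes did. The median difference was 0.52 in log ratio, against -0.03 over all genes. Of 60 genes of mitosis and chromosome segregation, 35 were higher at that threshold and 0 lower, 49 did not overlap, and all 60 differences were above 0, with a median of 0.56. No member of either list passed the adjusted threshold by log ratio, and Dnmt1 was the member of the replication list that passed in the sample channel.

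Both channels were read for these lists. The median difference of the replication genes was 0.64 in the sample channel and 0.05 in the reference channel, and that of the mitosis genes 0.63 and 0.06. In the sample channel 46 replication genes were higher at an unadjusted p under 0.05, where 9.57% of all genes were. The list medians by array were -1.19, -0.74 and -0.76 in the knockout and -0.21 and -0.48 with Cdx2 for replication, and -1.37, -0.69 and -0.76 against -0.25 and -0.54 for mitosis. Knockout replicate 1 was thus the lowest and Cdx2 replicate 1 the highest array for both lists. The wild type arrays had medians of -0.79, -1.10, -0.83 and -0.98 for replication, which the knockout arrays spanned and the arrays with Cdx2 exceeded.

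**Figure D2:**
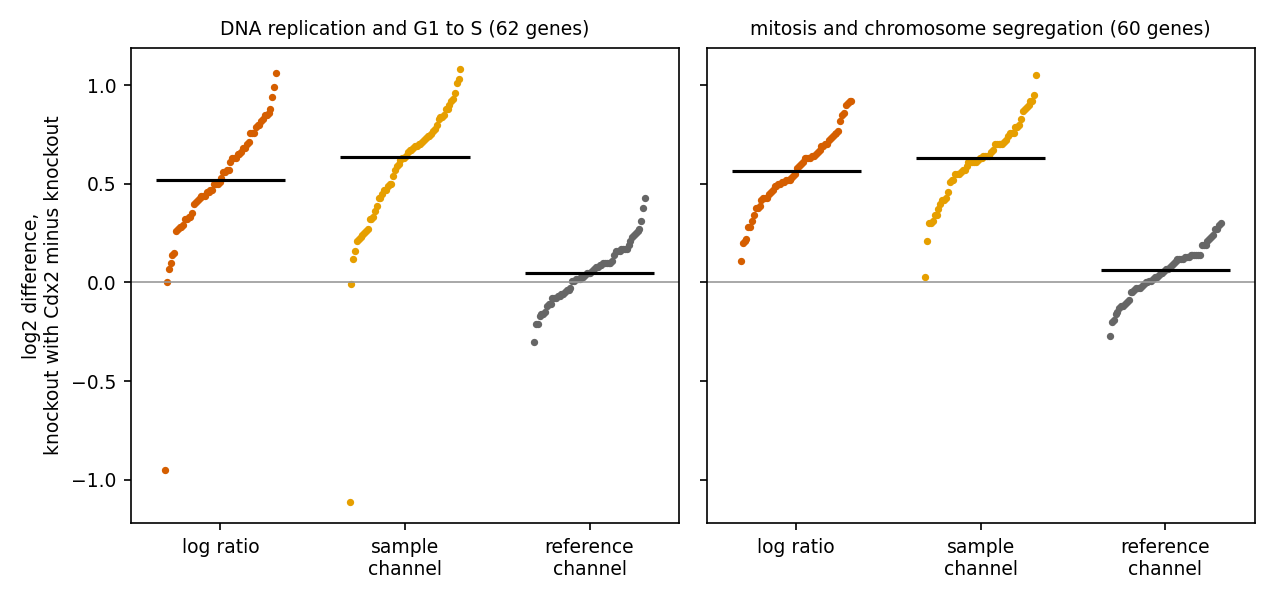
Difference of the knockout with Cdx2 minus the knockout (log2) in the log ratio, the sample channel and the reference channel for the 62 replication genes and the 60 mitosis genes, 1 point a gene, with the median as a bar. The log ratio and sample channel medians lie between 0.52 and 0.64, and those of the reference channel at 0.05 and 0.06.

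The pattern was smaller without either of these arrays. Without knockout replicate 1 the median of the replication list was 0.39 with 26 genes at an unadjusted p under 0.05, where 2.98% of all genes were higher. Without Cdx2 replicate 1 it was 0.42 with 10 genes (3.51% of all genes). It was 0.66 with 46 genes without Cdx2 replicate 2 (6.07%), 0.62 with 44 without knockout replicate 2 (5.52%) and 0.59 with 43 without knockout replicate 3 (4.55%). For the mitosis list the corresponding medians were 0.34 with 16 genes, 0.42 with 2 and 0.74 with 36. Cdx2 replicate 2 lay above all knockout arrays for 51 of the 62 replication genes, where it did so for 25.3% of all genes, and Cdx2 replicate 1 for 60, where it did so for 31.3%. With log ratios scaled between arrays the medians were 0.33 and 0.40, and 1 replication gene and 0 mitosis genes were at an unadjusted p under 0.05.

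Among the members, regulators of the start of replication were named under a rule that required no overlap between the groups. Ccne2, the cyclin that with its kinase triggers S phase, had log2 ratios of -0.85, -0.13 and -0.37 in the knockout and 0.60 and 0.47 with Cdx2, while its reference reading differed by -0.06. A further Ccne2 probe gave -0.81, -0.18 and -0.52 against 0.47 and 0.12, also with no overlap. Uhrf1 recruits Dnmt1 to newly replicated DNA. Its probe (mm9 chr17:56462657-56462716) gave sample signals of 11.90, 12.72 and 12.74 in the knockout and 13.52 and 13.55 with Cdx2. Its log2 ratios were -1.66, -0.77 and -0.88 against -0.10 and 0.02, a difference of 1.06 (SE 0.26, limma adjusted p = 0.362) that lay between 0.78 and 1.23 when single arrays were left out. In both genes knockout replicate 1 was the lowest array.

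Ticrr, a regulator of the start of replication, had log2 ratios of -1.55, -1.26 and -0.65 in the knockout and 0.13 and -0.02 with Cdx2. The difference was 1.21 (SE 0.32, limma adjusted p = 0.362). Dut, the enzyme that keeps uracil out of DNA, had -1.36, -1 and -0.92 against -0.50 and -0.38. For both genes each Cdx2 array exceeded each knockout array, which the rule that named them required. The minichromosome maintenance genes Mcm2 to Mcm7 encode the 6 subunits of the replicative helicase and were looked at after their values were seen. All 6 were higher on both Cdx2 arrays than on any knockout array, with log ratio differences of 0.43 to 0.83 and limma adjusted p of 0.362 to 0.418.

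In the mitosis list, Smc4, a subunit of condensin, had log2 ratios of -1.29, -0.97 and -1.14 in the knockout and -0.55 and -0.32 with Cdx2. Its sample difference was 0.79 (limma adjusted p = 0.0683). Bub3, a protein of the spindle checkpoint, had -0.74, -0.43 and -0.52 against -0.13 and -0.14. Cdkn1a, the p53 target that inhibits cyclin-dependent kinases, ran the other way, at -0.26, -1.05 and -0.50 against -1.07 and -1.73, a difference of -0.80 (SE 0.28, limma adjusted p = 0.384). Of 29 measured p53 targets and growth arrest genes, 3 were lower at an unadjusted p under 0.05, where 6.24% of all genes were, and 0 higher. Myc, a transcription factor that drives growth, had log2 ratios of -2.28, -1.94 and -1.92 against -1.79 and -1.37 with no overlap, a difference of 0.47 (SE 0.16, limma adjusted p = 0.379).

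The promoters of these genes were also read for sequence motifs. The 250 bases before the first listed start of each gene (RefSeq, GRCm38.p6) were searched on both strands for the E2F motif in the forms TTTCCCGC, TTTGGCGC, TTTCGCGC and TTTGCCGC. E2F factors are the activators of S phase genes. Of the 62 replication genes 47 were matched, and 12 of these (25.5%) held the motif: Brca2, Cdc25a, Cdc6, Dtl, Gins3, Hells, Mcm5, Mcm6, Mcm7, Orc1, Pola1 and Rfc3. Over all 27025 promoters the share was 1.91%, and over those of 13656 genes tested 2.88%. Of the genes named above, Uhrf1, Dut and Mcm3 held 0 matches. Of 51 matched mitosis genes 3 (5.88%) held the E2F motif, while 36 (70.6%) held CCAAT, which 34.5% of all promoters hold. The CCAAT share varied between other lists. It was 59.6% of 47 promoters for replication, 58.8% of 17 for smooth muscle and 20% of 20 for simple epithelium. A match is a description of these letters, not a bound site or a cause. These shares belong to the genes listed whatever the arrays show, so they are no test of the array values. Both helicase promoters with more than 1 match are shown as the clearest cases, with the matches in capitals, 5′ to 3′ on the strand of the gene. In Mcm6 (chr1:128359706-128359955, minus strand) the matches begin 110, 106 and 47 bases before the start, and the first of these overlap each other. In Mcm5 (chr8:75109259-75109508, plus strand) the matches at 153 and 149 bases overlap.
Mcm6: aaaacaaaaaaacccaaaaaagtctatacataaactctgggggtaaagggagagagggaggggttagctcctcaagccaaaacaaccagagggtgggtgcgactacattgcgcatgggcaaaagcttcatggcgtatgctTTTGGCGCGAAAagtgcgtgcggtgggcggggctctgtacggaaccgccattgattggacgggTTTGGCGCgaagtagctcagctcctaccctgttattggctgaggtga
Mcm5: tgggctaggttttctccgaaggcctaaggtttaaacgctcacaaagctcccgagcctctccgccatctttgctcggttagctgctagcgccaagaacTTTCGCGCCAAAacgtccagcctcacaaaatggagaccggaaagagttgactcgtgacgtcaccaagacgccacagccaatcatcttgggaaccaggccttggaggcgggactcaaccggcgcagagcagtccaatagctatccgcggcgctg

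Erythroid genes were read beside the cell cycle lists because young red cells divide. Of 33 erythroid genes 1 was higher at an unadjusted p under 0.05, where 5.18% of all genes were, and their median difference was 0.29. The list medians were 0.74, 1.15 and 1.29 in the knockout and 1.87 and 1.14 with Cdx2, so that knockout replicate 1 was again lowest and Cdx2 replicate 1 highest. Klf1, the master transcription factor of red cells, had log2 ratios of 0.21, 1.14 and 1.09 against 2.52 and 1.67. The erythroid median was -0.06 without Cdx2 replicate 1, where that of the replication genes was 0.42. Cdx2 replicate 2, the array then left with the transgene, had a log2 ratio of -0.90 for the immune marker Ptprc. In the knockout Ptprc was at -2.42, -2.86 and -2.72. The further immune markers Cd68 and Csf1r did not lie above all knockout arrays in replicate 2. The part of red or white blood cells in the cell cycle lists was not tested.

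**Figure D3:**
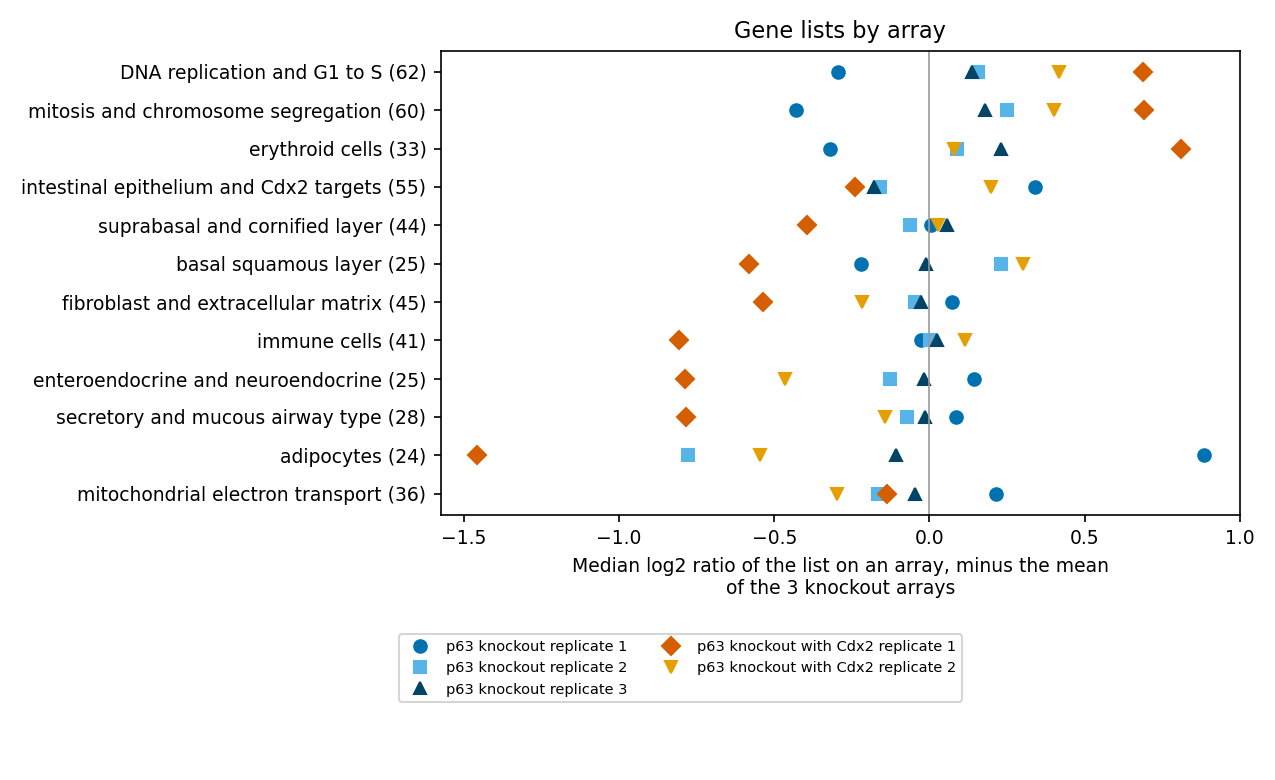
Median log2 ratio of 12 gene lists on each of the 5 arrays, minus the mean of the 3 knockout arrays (horizontal, log2 units), with the number of genes measured in parentheses. Blue symbols are knockout arrays and orange symbols arrays with Cdx2. Both orange symbols lie right of all blue ones for the replication and mitosis lists. They lie left of all blue ones for the fibroblast, enteroendocrine and secretory lists. For the secretory, immune and suprabasal lists the orange symbols lie apart from each other.

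Genes of the intestine, the tissue where Cdx2 normally acts, did not shift together. Of 55 measured intestinal genes and Cdx2 targets, 2 were higher and 3 lower at an unadjusted p under 0.05, where 5.18% and 6.24% of all genes were. In each direction 5 lay apart, where 14% of all genes lay apart higher and 18% lower, and the median difference was -0.02 in log ratio and 0.02 in the sample channel. Fabp1, Sis and Cdh17, of enterocytes, and the goblet cell mucin Muc2 differed by 0.14, 0.11, 0.07 and -0.07, and were picked as examples after their values were seen. Cdh17 and Muc2 were dim. Cdh17 was well above background on 0 knockout and 2 Cdx2 arrays. Its sample channel was higher by 0.27 with no overlap, and its reference reading by 0.21. Muc2 was well above background on 3 knockout arrays and 1 with Cdx2. Of the 55 genes, 41 were so on all 5 arrays. Both arrays with Cdx2 differed from each other here. Replicate 1 lay above all knockout arrays for 18 of the 55 genes and below them for 23, and replicate 2 above for 18 and below for 12. Over all genes replicate 1 lay above for 31.3% and below for 36.9%, and replicate 2 above for 25.3% and below for 35%. Without replicate 1, 6 intestinal genes were higher and 1 lower at an unadjusted p under 0.05, where 3.51% and 3.49% of all genes were. Without replicate 2, 2 were higher and 5 lower, where 6.07% and 8.46% of all genes were.

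Fabp2 stood highest among them. It encodes the intestinal fatty acid binding protein of enterocytes. Its log2 ratios were 0.79, 1.33 and 1.37 in the knockout and 2.06 and 3.81 with Cdx2. The background-subtracted sample signal was 172.33, 353.13 and 332.19 intensity units in the knockout, 474.47 in Cdx2 replicate 1 and 6942.53 in Cdx2 replicate 2. The groups did not overlap, but replicate 2 carried most of the difference. In log ratio it was 1.77 (SE 0.63, limma adjusted p = 0.387), and it was 0.90 without Cdx2 replicate 2 and 2.65 without Cdx2 replicate 1. The reference reading differed by 0.81, at 6.82, 6.89 and 6.82 in the knockout, 6.76 in Cdx2 replicate 1 and 8.56 in Cdx2 replicate 2. A further Fabp2 probe gave 0.38, 0.50 and 0.58 against 0.80 and 2.45. On the 4 wild type arrays, without the transgene, the brighter probe had log2 ratios of 2.47, 1.95, 0.90 and 0.65. Wild type replicate 1 thus lay above Cdx2 replicate 1. The same wild type array had the highest log2 ratios of all 9 for Vil1 and Lgals4, at 3.05 and 3.56.

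Apoa4, an apolipoprotein of enterocytes, and Lct, lactase, were looked at after their values were seen because they showed the same array. Apoa4 had log2 ratios of -0.01, -0.15 and 0.03 in the knockout, 0.00 in Cdx2 replicate 1 and 1.39 in replicate 2. Lct had 1.41, 1.10 and 0.97 against 0.94 and 2.21. Guca2b, the peptide uroguanylin, had -0.27, -0.37 and -0.36 against -0.27 and 0.59. In all of these, replicate 2 exceeded every knockout array and replicate 1 did not clearly do so. The summed signal of the markers Vil1, Lgals4, Cdh17, Fabp2 and Muc2 was 11.24, 11.03 and 11.1 on the log2 scale in the knockout, 10.96 in Cdx2 replicate 1 and 12.92 in replicate 2. An exact permutation test of such a sum, with the two-sided p taken as 2 times the one-sided p, cannot go below p = 0.2 with 2 arrays against 3.

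Slc7a9, a transporter of cystine and basic amino acids, was even between the replicates, at 0.01, 0.01 and -0.08 against 0.28 and 0.28, a difference of 0.30 (SE 0.11). Other genes of the list lay lower with Cdx2. Ceacam1, an adhesion molecule of many epithelia, had 4.39, 4.00 and 3.80 against 2.83 and 3.43, a difference of -0.94 (SE 0.21, limma adjusted p = 0.362). Clca1, a secreted protein of goblet and airway mucous cells, had 4.10, 3.57 and 3.73 against 0.47 and 3.02. Anpep, a brush border peptidase also found outside the gut, had 1.27, 1.07 and 1.07 against 0.31 and 0.95. In all of these the lowest array was Cdx2 replicate 1, the array in which airway secretory markers were lowest.

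**Figure D4:**
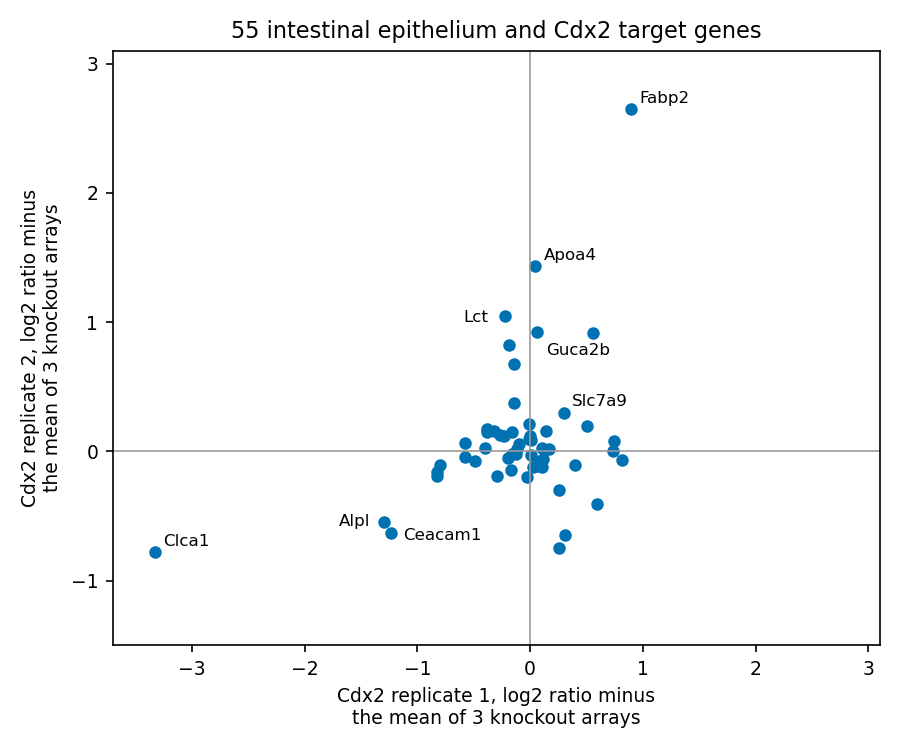
Log2 ratio of 55 intestinal genes and Cdx2 targets in Cdx2 replicate 1 (horizontal) and Cdx2 replicate 2 (vertical), each minus the mean of the 3 knockout arrays, 1 point a gene. Fabp2 lies above the mean of the knockout in both, Apoa4, Guca2b and Lct mainly in replicate 2, and Clca1 and Ceacam1 lie below it in both.

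Cdx factors bind the letters TTTATNG, and 8 of 43 matched intestinal promoters (18.6%) hold them: those of Agr2, Alpi, Apob, Clrn3, Fabp1, Fabp2, Krt20 and Sis. The share was 10.2% of all promoters and 7.44% over the genes tested. Lists not chosen for Cdx2 ranged widely: 27.8% of 18 promoters of secretory airway genes, 20% of 25 of skeletal muscle and 17.2% of 29 of fibroblasts held the letters, and 0 of 47 of replication genes. The Fabp2 promoter (chr3:122894822-122895071, plus strand, RefSeq, GRCm38.p6) is shown because Fabp2 had the largest log ratio difference of the list, with the match 65 bases before the start in capitals.
Fabp2: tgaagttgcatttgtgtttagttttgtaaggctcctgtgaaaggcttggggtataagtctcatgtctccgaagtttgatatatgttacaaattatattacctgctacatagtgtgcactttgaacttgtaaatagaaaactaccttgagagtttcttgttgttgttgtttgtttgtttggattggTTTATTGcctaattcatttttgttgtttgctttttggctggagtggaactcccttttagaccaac

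Squamous and columnar epithelial genes were read next, since both groups carry the p63 knockout. Of 25 basal layer genes 3 were lower at an unadjusted p under 0.05 and 0 higher, where 6.24% and 5.18% of all genes were, with a median difference of -0.22. Of 44 suprabasal and cornified layer genes 6 were lower and 1 higher by the same measure, with a median of -0.11. Aqp3, a water and glycerol channel of squamous epithelium, had log2 ratios of 1.92, 1.67 and 2.20 in the knockout and 0.39 and 1.20 with Cdx2, where the wild type mean was 3.90. Lypd3, a surface protein of suprabasal cells, had 0.76, 0.68 and 0.36 against -0.24 and 0.15, with a wild type mean of 2.85. Wnt10a and Dlk2, both of basal cells, had differences of -0.50 and -0.54 with no overlap. Lor, the cornified envelope protein loricrin, was the suprabasal gene at the higher side, at 1.32, 2.09 and 1.69 against 2.19 and 2.86, but its reference reading differed by 1.05.

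Both squamous lists rested on Cdx2 replicate 1. Without that array 1 basal gene was lower and 2 were higher at an unadjusted p under 0.05 (3.49% and 3.51% of all genes), and without Cdx2 replicate 2, 8 were lower and 0 higher (8.46% and 6.07%). Without Cdx2 replicate 1, 5 suprabasal genes were higher and 3 lower at an unadjusted p under 0.05, with a median of 0.02, and without Cdx2 replicate 2, 16 were lower, with a median of -0.27. Calml3, a calmodulin-like protein of stratified epithelium, had 2.95, 2.80 and 2.85 in the knockout and 0.85 and 2.23 with Cdx2. Its log ratio difference was -1.33 (SE 0.33), and without Cdx2 replicate 2 it was -2.02 at a limma adjusted p of 0.0107. Epcam, a surface marker of simple epithelium, had -0.09, 0.15 and 0.18 against 0.37 and 0.43 (limma adjusted p = 0.433). The further epithelial markers Cdh1, Krt8, Krt18 and Cldn7 differed by -0.04, 0.05, 0.15 and -0.05, each with overlap. Of 29 simple epithelium genes 1 was higher and 2 lower at an unadjusted p under 0.05, where 5.18% and 6.24% of all genes were. Of 25 columnar and foregut transcription factors 0 were higher and 3 lower. The median differences were -0.02 and 0.

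Of 28 genes of the secretory and mucous airway type, 5 were lower at an unadjusted p under 0.05 (6.24% of all genes) and 0 higher, and the list medians were 2.55, 2.39 and 2.45 in the knockout and 1.68 and 2.32 with Cdx2. Muc5b, an airway mucin, had log2 ratios of 3.75, 3.61 and 3.67 against 0.72 and 3.38. Its log ratio difference was -1.63 (SE 0.61), and without Cdx2 replicate 2 it was -2.96 at a limma adjusted p of 0.00158. Scgb1a1, a secretoglobin of club cells, had 3.18, 2.90 and 2.68 against 1.76 and 2.67, in which replicate 2 touched the lowest knockout array. The list median was -0.17 with 0 genes lower at that threshold without Cdx2 replicate 1 (3.49% of all genes), and -0.71 with 13 without Cdx2 replicate 2 (8.46%). The sample signal of Muc5b was 7.51 on the log2 scale in replicate 1, 14.48 in replicate 2 and between 13.98 and 15.23 in the knockout. Its reference reading differed by -2.17, at 11.48, 10.38 and 11.49 in the knockout, 6.79 in replicate 1 and 11.09 in replicate 2. Cyp2a5, a cytochrome P450 of airway and liver, had 4.65, 4.17 and 3.83 against 2.31 and 2.85, a difference of -1.63 (SE 0.25, limma adjusted p = 0.353). Its near-identical copy Cyp2a4 can share the signal of its probe, so the gene is uncertain.

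**Figure D5:**
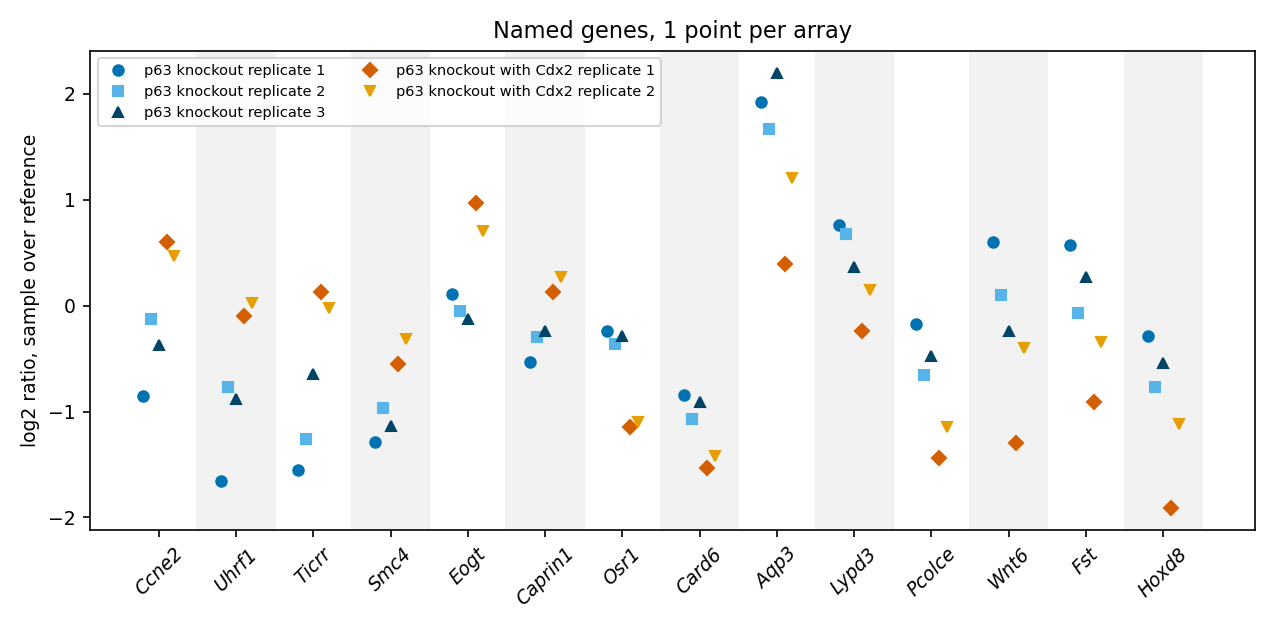
Log2 ratio of sample over reference (vertical) for 14 named genes on each of the 5 arrays, 1 point an array. Blue symbols are knockout arrays and orange symbols arrays with Cdx2. The orange symbols lie above the blue ones from Ccne2 to Caprin1 and below them from Osr1 to Hoxd8. The rule that named these genes required this separation.

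Among genes of the stroma, the fibroblast list lay lower with Cdx2. Of 45 fibroblast and extracellular matrix genes, 14 were lower at an unadjusted p under 0.05 and 0 higher, where 6.24% of all genes were lower, and 25 did not overlap between the groups, where 18% of all genes did not. The median difference was -0.36 in log ratio and in the sample channel, and -0.01 in the reference channel. In the sample channel 10 were lower at an unadjusted p under 0.05, where 8.16% of all genes were. The list medians of the log ratio were 1.68, 1.56 and 1.58 in the knockout and 1.07 and 1.39 with Cdx2. Those of the sample channel were 13.78, 13.62 and 13.56 against 12.95 and 13.61, so that Cdx2 replicate 2 lay within the knockout range there. Of 22 smooth muscle and 24 endothelial genes, 0 were lower at an unadjusted p under 0.05 by log ratio. Of these, 5 and 6 lay below all knockout arrays, where 18% of all genes did. In the sample channel 0 and 5 were lower at that threshold, where 8.16% of all genes were. There 0 smooth muscle, 10 endothelial and 21 fibroblast genes lay below all knockout arrays, where 16.5% of all genes did. The endothelial median was -0.23 in the sample channel and -0.17 in the reference channel. The fibroblast median of the log ratio difference was -0.21 without Cdx2 replicate 1 and -0.51 without Cdx2 replicate 2. It was -0.28 with 7 genes lower without knockout replicate 1 (3.37% of all genes), -0.41 with 13 without replicate 2 (6.78%) and -0.37 with 10 without replicate 3 (4.67%). With log ratios scaled between arrays it was -0.10 with 0 genes at that threshold.

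Pcolce, which enhances the processing of fibrillar procollagen, had log2 ratios of -0.17, -0.66 and -0.48 in the knockout and -1.44 and -1.15 with Cdx2, a difference of -0.86 (SE 0.18, limma adjusted p = 0.362). Col6a1, a chain of microfibrillar collagen, had 0.73, 0.44 and 0.48 against -0.15 and 0.14. Col1a1, Col1a2 and Sparc, abundant matrix genes looked at after their values were seen, differed by -0.84, -0.75 and -0.77 in log ratio. Their sample differences were smaller, at -0.27, -0.35 and -0.61, and their reference readings differed by 0.57, 0.39 and 0.17. The further fibroblast markers Col3a1, Dcn and Pdgfra differed by -0.34, -0.31 and -0.11 in log ratio. The summed signal of the fibroblast markers Col1a1, Col3a1, Pdgfra and Dcn was 19.29, 19.09 and 19.11 on the log2 scale in the knockout and 18.81 and 19.05 with Cdx2.

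Immune genes depended on 1 array with Cdx2. Of 41 measured, 5 were lower at an unadjusted p under 0.05 and 0 higher, where 6.24% and 5.18% of all genes were. That turned to 7 higher and 1 lower without Cdx2 replicate 1, where 3.51% and 3.49% of all genes were. Of 24 adipocyte genes 3 were lower, again against 6.24% of all genes, with list medians of 2.54, 0.88 and 1.55 in the knockout and 0.20 and 1.11 with Cdx2, and 1 was lower without knockout replicate 1 (3.37% of all genes). Ucp1, the uncoupling protein of brown fat, had log2 ratios of 3.51, 0.62 and 1.54 against -0.16 and 0.38. Of 25 enteroendocrine and neuroendocrine genes, 15 lay below all knockout arrays on both arrays with Cdx2, where 18% of all genes did. At an unadjusted p under 0.05, 4 were lower (6.24% of all genes) and 0 higher, with list medians of 1.62, 1.35 and 1.46 against 0.69 and 1.01. At that threshold 1 was lower and 1 higher without Cdx2 replicate 1 (3.49% and 3.51% of all genes), and 6 were lower without Cdx2 replicate 2 (8.46%). Calcb, a calcitonin gene-related peptide, had 1.62, 1.60 and 1.79 against 0.55 and 1.01. Isl1, a transcription factor of endocrine and neural cells, had 2.70, 2.15 and 2.56 against 1.28 and 1.99.

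Signalling and patterning genes were counted next. Of 33 Wnt pathway genes 3 were higher and 4 lower at an unadjusted p under 0.05, of 38 Notch, hedgehog and BMP genes 3 and 1, and of 30 Hox genes 0 and 4, where 5.18% of all genes were higher and 6.24% lower. Wnt6, a ligand, had log2 ratios of 0.60, 0.10 and -0.24 in the knockout and -1.30 and -0.40 with Cdx2, a difference of -1.01 (SE 0.30, limma adjusted p = 0.363). Fst, the activin antagonist follistatin, had 0.57, -0.07 and 0.27 against -0.91 and -0.34. The receptor Notch1 had 1.09, 1.34 and 1.06 against 1.35 and 1.83, with no overlap. Hoxd8, of the axial patterning genes, had -0.29, -0.77 and -0.54 against -1.91 and -1.12, a difference of -0.98 (SE 0.23, limma adjusted p = 0.362), and Hoxd4 differed by -0.51. None of these passed the adjusted threshold by log ratio.

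Lef1, a nuclear effector of Wnt signalling that is also abundant in T cell precursors, showed how far 1 array can decide a value. It had log2 ratios of -1.35, -1.18 and -1.30 in the knockout, -1.15 in Cdx2 replicate 1 and 0.75 in Cdx2 replicate 2. Its difference of 1.08 (SE 0.46, limma adjusted p = 0.432) became 2.02 (adjusted p = 0.0327) without Cdx2 replicate 1. A few genes of neighbouring organs were looked at after their values were seen. Ccl25, a thymic chemokine, had 0.21, 2.35 and 1.95 in the knockout, -0.64 in replicate 1 and 3.80 in replicate 2. Dntt, the nucleotide transferase of lymphocyte precursors, had -1.45, -1.57 and -1.92 against -2.23 and 0.24. Tg, thyroglobulin of the neighbouring thyroid, had 3.00, 3.17 and 3.20 against -0.88 and 2.55. Of the 26 genes listed for thyroid, thymus and cartilage, replicate 2 lay above all knockout arrays for 7, where it did so for 25.3% of all genes, and replicate 1 for 2. The part of neighbouring organs in these values was not tested.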

How the data were processed

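Total RNA of 9 newborn mouse esophagus samples was hybridised to Agilent arrays with 2 colours. The deposited scanner files hold the mean intensity and the local background intensity of each spot, per the file headers written by Feature Extraction 10.7.3.1, while the submitters' processing notes name version 9.1. The same files hold processed intensities and log10 ratios of Cy5 over Cy3, and the authors' deposited table holds log2 ratios. That table correlated with the scanner ratios of each array at r of 0.992 or more, with column medians of -0.212 to -0.0292. Its handling of replicate spots is not given in the sources used here.

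Of 45018 spots per array, 1639 were controls, and 119 to 171 outlier spots per array were left out. No sample spot was saturated. Signals were corrected with normexp (offset 50) and then by loess within arrays. The sample channel was further normalized by Aquantile. Probes whose Cy5 signal was well above background on 2 or more of 9 arrays were kept (33750), and the brightest probe gave each of 22644 genes. Names came from RefSeq (GRCm38.p6) for 27029 probes by accession and 5805 by symbol or synonym, and 8340 kept the file's name. Probe coordinates are those of the files (mm9).

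Both readouts were fitted with limma 3.58.1 in R 4.3.3 over all 9 arrays with 3 genotypes, adjusted by Benjamini-Hochberg at 0.05. The fit was tested on simulated data. With 2 against 3 arrays, the number of arrays limits the precision. Differences are the knockout with Cdx2 minus the knockout in log2 units. Genes were named by rule: the targeted genes, up to 12 in each direction called in both readouts, up to 8 with a log ratio difference of at least 1 and the lowest p, and up to 2 per list and direction (6 for the intestinal list). Apart from the targeted genes, the rule took only genes whose groups did not overlap in log ratio. That separation is therefore no result about the named genes. Genes outside the rule are marked, and some genes that the rule names are not reported here. The members, lists and tests were chosen with earlier results of these data known. Other corrections, normalizations, filters, probe summaries, priors, weights, covariates and fits without single arrays were run as alternatives.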

Additional observations from a re-analysis of the deposited data

How the results depend on the processing

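By log ratio, the 0 calls of limma became 1 with a trended and robust prior, 5 with the scanner software's log ratios, 4 in the authors' deposited table and between 0 and 36 with 1 array left out. The 36 came without Cdx2 replicate 1, and 11 without Cdx2 replicate 2. A lone Cdx2 array is then assumed to vary like the other groups. In the sample channel, the 53 calls became 0 with only the 5 arrays compared or with median centring of that channel, 89 with every probe tested, 28 with array weights, 15 with sex as a covariate, and between 6 and 158 with 1 array left out. The 28 genes of both readouts became 0, 55, 11 and 6 with only 5 arrays, every probe, array weights and sex, and between 2 and 48 with 1 array left out. The cause of these shifts was not tested. The Vil1 difference of -0.10 lay between -0.38 (without Cdx2 replicate 2) and 0.17 (without Cdx2 replicate 1) with 1 array left out, and turned to 0.09 with log ratios scaled between arrays.

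The replicate numbers did not pair the samples, since deviations of same-numbered arrays correlated at -0.0312 and -0.133 between the groups compared. With the replicate number as a block, 0 genes were called in the sample channel and 0 in both readouts.

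For 68 named genes under up to 20 alternatives, the log ratio kept its direction and side of the threshold in 1347 cases, passed the threshold in 4 and turned sign in 2. The 4 were Lef1, Calml3 and Muc5b with 1 Cdx2 array left out and 4930437M23Rik, at 2.88, with scanner values. The 15 genes called by symbol in both readouts kept their direction under up to 19 alternatives and lost the call in 158 of 284 cases. At an unadjusted p under 0.05 the count of 2585 genes was 3881 over every probe, 1438 without knockout replicate 1 and 1585 without Cdx2 replicate 1.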

Other observations

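Genes of energy metabolism and protein synthesis were also counted. Of 36 genes of mitochondrial electron transport, 2 were lower at an unadjusted p under 0.05, where 6.24% of all genes were, and 12 lay below all knockout arrays on both arrays with Cdx2, where 18% of all genes did. Cdx2 replicate 2 lay below for 29 of them and replicate 1 for 13, where this held for 35% and 36.9% of all genes. Their list medians were 0.72, 0.34 and 0.46 in the knockout and 0.37 and 0.21 with Cdx2, and the median difference of -0.21 was -0.10 without knockout replicate 1, the array with the highest adipocyte markers. Of 43 ribosomal protein genes 1 was higher at that threshold (5.18% of all genes), and 13 lay above all knockout arrays on both arrays with Cdx2, where 14% of all genes did. Their median difference was 0.08.

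Of 52 genes of multiciliated cells, 0 were at an unadjusted p under 0.05 by log ratio, while 14 lay below all knockout arrays, where 18% of all genes did. Cdx2 replicate 1 lay below for 41 of them and replicate 2 for 18, where this held for 36.9% and 35% of all genes. The list medians were 2.07, 2.14 and 2.39 in the knockout and 1.47 and 2.17 with Cdx2. They were 1.44, 2.19, 1.25 and 2.45 in wild type, which thus also gave this signal. In the sample channel 1 member was called lower, where 0.19% of all genes were. The median log ratio difference was -0.24 and turned to 0.03 with log ratios scaled between arrays. Of 32 genes of enteric neurons and glia 1 was lower at that threshold (6.24% of all genes) and 11 lay below all knockout arrays (18%), with a median of -0.30. Of 32 immediate early and stress genes 5 were lower and 1 higher (6.24% and 5.18% of all genes), and 8 lay below all knockout arrays, with a median of -0.28. Jund, a subunit of the AP-1 factor, differed by -0.52.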
